A study of Homo sapiens with 16 samples.

Results

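Interferon-stimulated genes are the genes that a cell switches on when interferon reaches its receptors. A list of 48 of them was followed in SW480 cells, an established line from a human colorectal carcinoma whose own APC protein is truncated. Each gene was represented by the probe set that the array annotation pairs with that gene alone and, where there were several, by the brightest one over the 16 arrays. This gave 47 measured members of 19775 genes. STAT2 was not analysed here, because no probe set was paired with it alone. The arrays formed 4 groups of 4, with replicates lettered A to D. siTAZ cells carried a stable empty vector and received an siRNA against TAZ (gene WWTR1), a transcriptional coactivator. sibcat cells carried the same vector and received an siRNA against beta-catenin (gene CTNNB1), the transcriptional effector of Wnt signalling. APC cells carried a stable vector for wild-type APC, a part of the complex that degrades beta-catenin, and received the control siRNA. siGFP cells, the control, carried the empty vector and the control siRNA. All 4 groups had thus been transfected with an siRNA, and APC cells differed from siGFP cells by their vector. Each target had 1 siRNA condition, and whether the APC cells were 1 clone or several is not given in the sources used here.

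Type I, II and III interferons bind their own receptors, whose JAK kinases phosphorylate STAT proteins. Complexes of STAT proteins with IRF9 bind interferon-stimulated response elements in promoters, while STAT dimers bind gamma-activated sites. The proteins made in response degrade or sequester viral RNA, block virus entry and release, modify other proteins with ISG15, and restrict cell growth. In epithelial tumour cells many of these genes are also transcribed at a basal level without added interferon, and IRF1 can bind the same elements.

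The promoters of 8 members are shown because the results below turn on these genes and each carries the response element core. The sequences are 100-base windows upstream of the RefSeq transcription start on GRCh38.p14, written on the strand of the gene, with each element core in capitals. The core searched was GAAANNGAAA, or TTTCNNTTTC where the match lies on the opposite strand.
SAMD9: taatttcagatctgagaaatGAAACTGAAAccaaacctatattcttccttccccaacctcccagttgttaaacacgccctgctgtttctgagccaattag
GBP1: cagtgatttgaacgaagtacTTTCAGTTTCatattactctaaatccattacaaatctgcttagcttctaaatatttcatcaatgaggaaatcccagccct
IFIT1: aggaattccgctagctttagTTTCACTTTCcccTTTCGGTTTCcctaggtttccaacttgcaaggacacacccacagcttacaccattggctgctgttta
IFIT3: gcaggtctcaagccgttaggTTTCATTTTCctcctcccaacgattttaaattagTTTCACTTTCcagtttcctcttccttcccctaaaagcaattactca
RTP4: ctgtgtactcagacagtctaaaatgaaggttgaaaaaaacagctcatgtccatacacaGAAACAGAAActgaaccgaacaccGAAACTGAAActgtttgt
ISG20: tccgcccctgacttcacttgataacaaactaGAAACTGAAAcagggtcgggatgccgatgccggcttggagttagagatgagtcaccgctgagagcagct
IFI27: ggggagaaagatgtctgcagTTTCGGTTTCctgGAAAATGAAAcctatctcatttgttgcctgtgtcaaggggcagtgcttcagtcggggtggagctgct
IFI6: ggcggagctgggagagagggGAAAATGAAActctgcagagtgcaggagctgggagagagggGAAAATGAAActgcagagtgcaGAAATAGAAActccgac
The windows lie at chr7:93118036-93118135 for SAMD9, chr1:89065256-89065355 for GBP1 and chr1:27672269-27672368 for IFI6, all 3 on the minus strand. On the plus strand they lie at chr10:89392487-89392586 for IFIT1, chr10:89327821-89327920 for IFIT3, chr3:187368285-187368384 for RTP4, chr15:88638916-88639015 for ISG20 and chr14:94110608-94110707 for IFI27. IFI6 has 3 cores in its window, IFIT1, IFIT3, RTP4 and IFI27 have 2 each, and SAMD9, GBP1 and ISG20 have 1 each.

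A promoter entry was found for 37 of the 47 members, matched by symbol. Searched over 250 bases before and 50 after the start, the element core was present in 24 of these 37 promoters (64.9%), against 996 of 27305 promoters in the whole table (3.65%). The gamma-activated site core TTCNNNGAA, which reads the same on both strands, was present in 10 of 37 (27.0%), against 2152 of 27305 (7.88%). Of the 43 element cores found, 39 were centred before the start. In 4 genes (BST2, EPSTI1, IFI27 and IFITM1) an element core overlapped a gamma-activated site core, and in 5 (BST2, HERC5, IFIH1, ISG15 and TRIM21) 2 element cores overlapped each other. A match describes letters in the window and does not show that a factor binds there.

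**Figure D1:**
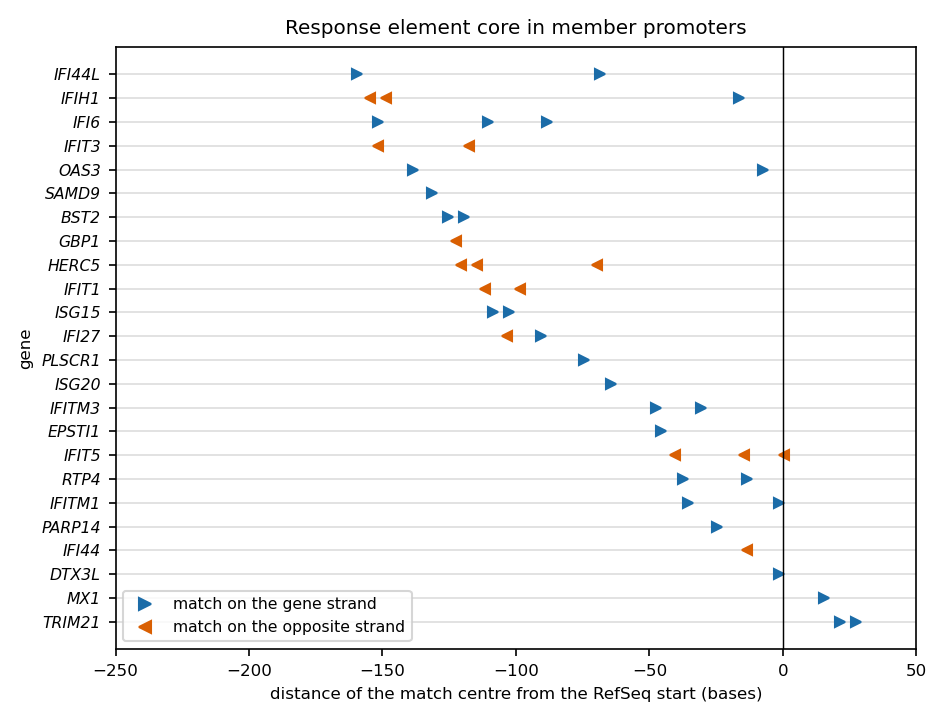
Position of every interferon-stimulated response element core in the promoters of the 24 members that hold one. The x axis gives the distance of the match centre from the RefSeq transcription start in bases, each row is a gene, and triangles point along the strand of the match. Of the 43 matches, 39 lie before the start, and the 3 of IFI6, the 2 of IFIT1 and the 1 of SAMD9 are among them.

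The deposited values are log2 RMA signals, referred to below as log2 levels, and a log2 difference is the difference between the mean log2 levels of 2 groups. The 47 members had mean log2 levels between 2.63 and 12.5 with a median of 7.09, against a median of 6.26 over all genes. Of these, 40 lay at or above 5.10, the median of all probe sets, and 7 lay below it. By group, 11 members had at least 1 group mean below 5.10 (CMPK2, HERC5, IFI44, IFI44L, OAS2, RSAD2, RTP4, SAMD9, SAMD9L, TRIM22 and XAF1), and 7 of them reached 5.10 in another group. Where a group mean is below 5.10 the signal may be largely background, and the size of a difference is then uncertain. The siRNAs lowered their targets. WWTR1 averaged 6.91 ± 0.15 in siTAZ cells and 10.28 ± 0.11 in siGFP cells, and CTNNB1 averaged 10.16 ± 0.24 in sibcat cells and 13.12 ± 0.16 in siGFP cells (log2 level, SD, n = 4 each). Against siGFP cells, WWTR1 rose by a log2 difference of 0.70 in sibcat cells and 0.725 in APC cells, and CTNNB1 fell by 0.375 in APC cells. The comparisons of siTAZ with sibcat and APC cells below thus set lowered against raised WWTR1. The APC probe set averaged 8.30 ± 0.18 in APC cells and 8.22 ± 0.32 in siGFP cells and was not called, and whether it covers the vector's transcript was not tested. All 7 epithelial markers measured were at or above 5.10, but some shifted between groups. The mean over the list ran between 10.40 and 10.53 in siTAZ arrays and 10.69 and 10.74 in sibcat arrays. In APC arrays it ran between 10.39 and 10.44, and in siGFP arrays between 10.60 and 10.69. CDH1 averaged 8.75 in siTAZ, 10.285 in sibcat, 10.01 in APC and 9.88 in siGFP cells. In the same order CDX2 averaged 7.04, 5.59, 6.12 and 6.56, and VIL1 5.84, 6.98, 5.56 and 5.955. Their part in the results was not tested. Of 8 leukocyte markers, 5 stayed below 5.10 in every group, among them PTPRC, the pan-leukocyte marker, with means between 3.01 and 3.15, while CD3E, CD3D and CD14 reached 5.10 in at least 1 group. The mean over the leukocyte list ran between 4.17 and 4.34 in siTAZ arrays, 4.33 and 4.42 in sibcat arrays, 4.16 and 4.31 in APC arrays and 4.14 and 4.43 in siGFP arrays. CD14 averaged 5.20 in siTAZ cells, 6.24 in sibcat cells, 5.08 in APC cells and 4.60 in siGFP cells, with every array of the other groups above every siGFP array, and its part in the results was not tested. Of 7 fibroblast and endothelial markers, COL1A1, PDGFRB and PECAM1 reached 5.10, and the mean over that list ran between 4.88 and 4.99 in siTAZ arrays, 4.99 and 5.01 in sibcat arrays, 4.92 and 5.03 in APC arrays and 4.90 and 5.21 in siGFP arrays. These are bulk samples, so a change in the share of cells that transcribe a gene and a change in RNA per cell cannot be told apart.

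With TAZ depleted, interferon-stimulated genes changed unevenly: a growth-restricting gene, a GTPase, an exonuclease and a ubiquitin ligase rose most, and the classical RNA-binding effector IFIT1 fell. SAMD9 was 6.46-fold higher in siTAZ than in siGFP cells, GBP1 2.69-fold, ISG20 2.07-fold and TRIM22 2.00-fold. The siGFP mean of SAMD9 and both means of TRIM22 lay below 5.10, and the only probe set of TRIM22 can cross-hybridise by its name. A gene was called changed at an adjusted p under 0.05 in limma over all genes. By that rule 24 of the 47 members rose (51.1%), where 17% of all genes rose, and 3 fell (6.38%), where 13.1% of all genes fell. The other 20 were not called. In 23 members every siTAZ array lay above every siGFP array, and in 3 every siTAZ array lay below, where 16.9% and 12.7% of all genes did so. The median log2 difference over the members was 0.26, against 0.01 over all genes, with members running between -0.37 and 2.69. At least 1.5-fold higher and called were 10 members, and the 3 that fell did so by less than 1.5-fold. Over all genes the shares called at that fold were 3.55% higher and 2.96% lower. The signal of ACTB 3′ over 5′ probe sets, a measure of RNA quality, ran between 2.25 and 3.09 in siTAZ arrays and 1.90 and 2.26 in siGFP arrays (log2 difference). With that measure as a covariate, 22 members were called higher and 4 lower. Within replicates A and B alone, limma called 19 members higher and 0 lower, and 23 and 0 passed an unadjusted p of 0.05. Within C and D alone, 22 were higher and 3 lower. The shares of all genes called with the covariate or within these subsets were not computed.

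With beta-catenin depleted, most members rose. The ubiquitin ligase TRIM22 was 6.61-fold higher in sibcat than in siGFP cells, IFIT1 4.02-fold, SAMD9 3.80-fold, RTP4 3.40-fold and GBP1 3.31-fold, while all 3 IFITM genes (IFITM3 with overlapping arrays), IFI27, OAS2, ISG20 and IRF7 fell. As the only probe set of TRIM22 can cross-hybridise, its signal may include other transcripts. Of the 47 members, 34 rose (72.3%), where 18.6% of all genes rose, and 7 fell (14.9%), where 17.3% of all genes fell. The other 6 were not called. The groups did not overlap in 33 members with sibcat cells higher and in 6 with sibcat cells lower, where 17.8% and 15.8% of all genes did so. Over the members the median log2 difference was 0.59, against 0.00 over all genes, and the members ran between -0.58 and 2.73. At least 1.5-fold higher and called were 24 members, of which 12 reached 2-fold, and the 7 that fell did so by less than 1.5-fold. Over all genes 5.46% were called at least 1.5-fold higher and 4.50% at least 1.5-fold lower, and no share was computed at 2-fold. Within replicates A and B, 31 members were higher and 6 lower, and within C and D 32 were higher and 6 lower. For these subsets the shares of all genes were not computed.

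In cells carrying wild-type APC, most members rose, and the share that fell was near that of all genes. SAMD9 was 9.08-fold higher in APC than in siGFP cells, GBP1 7.35-fold and RTP4 5.71-fold, and OAS2 was 2.45-fold, IFI27 2.44-fold and ISG20 1.96-fold lower. Of the 47 members, 30 rose (63.8%), where 16.6% of all genes rose, and 9 fell (19.1%), where 17.1% of all genes fell. The other 8 were not called. In 31 members every APC array lay above every siGFP array and in 9 every APC array lay below, where 16% and 15.7% of all genes did so. Their median log2 difference was 0.60, against 0.01 over all genes, and the members ran between -1.29 and 3.18. At least 1.5-fold higher and called were 25 members and at least 1.5-fold lower were 5, where 3.73% and 5.72% of all genes were. Within replicates A and B, 29 members were higher and 7 lower, and within C and D 29 were higher and 9 lower, again without shares over all genes. The comparisons of siTAZ, sibcat and APC cells with siGFP cells share the 4 control arrays, so their values stand side by side below and are not independent of each other.

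**Figure D2:**
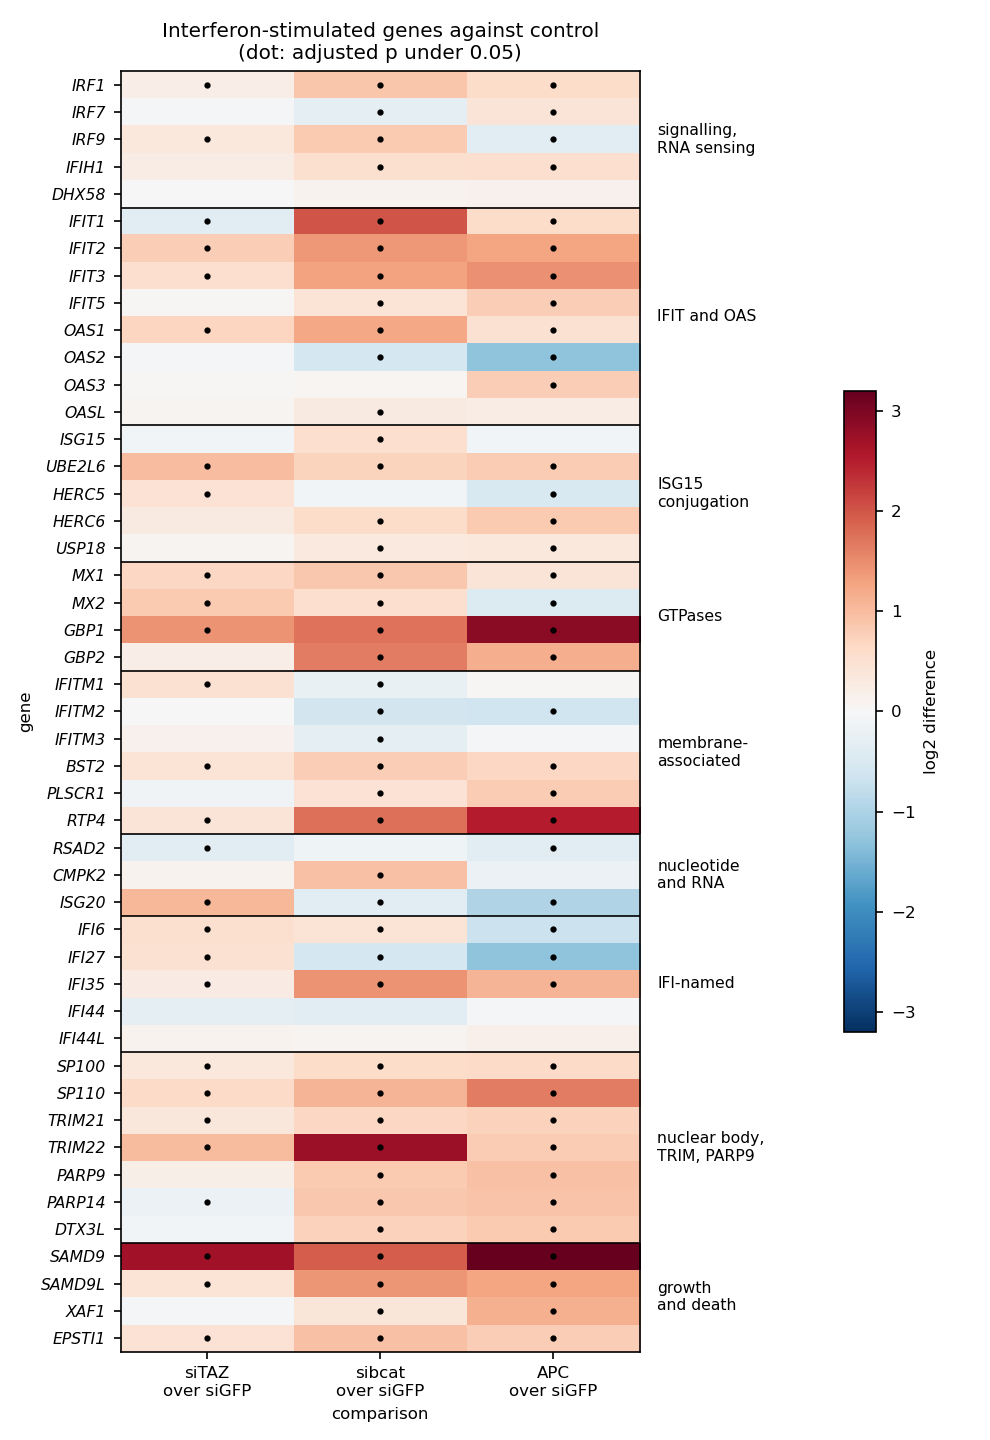
Log2 difference of each of the 47 measured members (rows, grouped by role) in siTAZ, sibcat and APC cells over siGFP cells (columns). Red is higher and blue is lower than in siGFP cells, and a dot marks an adjusted p under 0.05. SAMD9 and GBP1 are red in all 3 columns, TRIM22 and IFIT1 are darkest in the sibcat column, and ISG20 and IFI27 are red in the siTAZ column and blue in the other columns.

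Outside the members, 43 of 46 listed genes of interferon production and signalling were measured. Of these, 12 rose and 7 fell in siTAZ cells, 18 rose and 4 fell in sibcat cells, and 16 rose and 6 fell in APC cells, each against siGFP cells. The shares that rose were 27.9%, 41.9% and 37.2% in siTAZ, sibcat and APC cells, where 17%, 18.6% and 16.6% of all genes rose. The shares that fell were 16.3%, 9.30% and 14.0%, where 13.1%, 17.3% and 17.1% of all genes fell, so the falls in siTAZ and APC cells were near the share over all genes. The median log2 difference over this list was 0.06 in siTAZ cells, 0.14 in sibcat cells and 0.12 in APC cells, against 0.01, 0.00 and 0.01 over all genes. The interferon genes themselves gave no call. IFNA1, IFNB1, IFNE, IFNK, IFNW1, IFNG, IFNL1 and IFNL2 had group means between 2.25 and 4.14, all below 5.10, and transcripts at that level cannot be told from background on these arrays. IFNL3 was not analysed here, as it had no probe set of its own. Receptor genes moved in different directions. IFNAR1, a chain of the type I receptor, averaged 7.36 in siTAZ cells, 7.97 in sibcat cells, 8.28 in APC cells and 7.99 in siGFP cells, and fell by 0.63 on the log2 scale in siTAZ cells (adjusted p = 0.000375). It was not called in sibcat or APC cells. IFNAR2, the other chain, rose by a log2 difference of 0.43 in siTAZ cells and 0.51 in sibcat cells, with 0.04, not called, in APC cells. IFNGR1, the ligand-binding chain of the interferon gamma receptor, rose by a log2 difference of 0.69 in siTAZ cells, 0.39 in sibcat cells and 0.51 in APC cells. IFNGR2, its partner chain, rose by 0.20, 0.56 and 0.91 in siTAZ, sibcat and APC cells. IL10RB, a chain shared by the type III interferon and interleukin receptors, rose by 0.40 in siTAZ cells, 0.70 in sibcat cells and 0.29 in APC cells. IFNLR1, the specific chain of the type III receptor, fell by 0.32 in APC cells.

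Genes linked to nucleic acid sensing did not share a pattern. IFI16, a DNA sensor, had log2 levels of 5.90, 6.05, 6.18 and 6.18 in siTAZ cells, 5.33, 5.60, 5.82 and 5.83 in sibcat cells, 7.15, 7.09, 7.62 and 7.21 in APC cells and 5.29, 4.22, 4.87 and 4.86 in siGFP cells. Every array of the other groups lay above every siGFP array, and the log2 differences were 1.27 in siTAZ, 0.83 in sibcat and 2.46 in APC cells. The siGFP mean of 4.81 lay below 5.10. TLR3, the endosomal sensor of double-stranded RNA, rose by 1.06 in siTAZ, 1.31 in sibcat and 1.05 in APC cells, again over a siGFP mean below 5.10 (4.48). NLRC5, a transactivator of MHC class I genes, rose by 0.62, 0.69 and 0.99 in siTAZ, sibcat and APC cells. Its siGFP mean of 4.49 also lay below 5.10. DDX60, a helicase linked to RNA sensing, had log2 levels of 5.07, 5.19, 5.20 and 5.22 in siTAZ cells and 6.37, 6.05, 6.67 and 6.33 in siGFP cells, and fell by 1.19. In APC cells it had 7.18, 7.13, 7.37 and 7.22 and rose by 0.87, so the siTAZ and APC arrays lay on opposite sides of the siGFP arrays. In sibcat cells the log2 difference was -0.15 and was not called. RIGI, the RNA sensor RIG-I, rose by 0.51 in sibcat cells and 0.47 in APC cells and was not called in siTAZ cells, and CGAS, the DNA sensor cGAS, was called in none of these comparisons and had group means below 5.10. ZBP1, a sensor of Z-form nucleic acids, rose by 0.60 in APC cells over a siGFP mean below 5.10 and was not called in the others. RIGI, CGAS and ZBP1, and IFNAR2 above, were added after their values were seen. TLR4, the lipopolysaccharide receptor, fell by 0.88 in siTAZ cells and 0.81 in APC cells. Of the signalling genes, TBK1, the kinase that activates IRF3, fell by 0.92 in APC cells, where all 4 arrays (8.18 to 8.31) lay below those of siGFP cells (9.02 to 9.28). TBK1 rose by 0.205 in siTAZ cells and was not called in sibcat cells. SOCS3, a feedback inhibitor of JAK kinases, fell by 0.49 in siTAZ cells, where its mean of 4.815 lay below 5.10, and rose by 0.59 in sibcat cells. The adaptor TRAF3 fell by 0.52 in sibcat cells and by 0.235 in APC cells. The tyrosine phosphatase PTPN2 fell by 0.22 in sibcat cells. PTPN11, another such phosphatase, fell by 0.285 in siTAZ cells and by 0.22, with overlapping arrays, in sibcat cells. TRIM25, the ligase that activates RIG-I, rose by 0.70 in sibcat cells and 0.63 in APC cells. IRF5, another interferon regulatory factor, fell by 0.69 in APC cells and by 0.28 in sibcat cells. By name the probe sets of IFI16, DDX60, RIGI, CGAS, ZBP1, TLR4 and IRF5, and of IFNAR2 and IFNGR1 above, can cross-hybridise. Further probe sets of the genes outside the members are not given here.

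Among the members, 5 genes belong to signalling and RNA sensing. Of these, 2 rose and none fell in siTAZ cells, 3 rose and 1 fell in sibcat cells, and 3 rose and 1 fell in APC cells. For this and the following classes of 3 to 8 members, the shares of all genes called higher were 17%, 18.6% and 16.6% in siTAZ, sibcat and APC cells, and the shares called lower were 13.1%, 17.3% and 17.1%. In a class this small 1 gene makes up 12.5% to 33.3% of the members, and no class was tested as such. IRF9, a DNA-binding partner of STAT proteins, had log2 levels of 7.37, 7.42, 7.28 and 7.44 in siTAZ cells, 7.97, 7.88, 7.79 and 7.92 in sibcat cells, 6.76, 6.78, 6.59 and 6.73 in APC cells and 7.02, 7.09, 7.03 and 7.06 in siGFP cells. No 2 of the 4 groups overlapped. This gave a log2 difference of 0.33 in siTAZ cells (adjusted p = 0.00023), 0.84 in sibcat cells (3.5e-09) and -0.34 in APC cells (0.000149). IRF1, a transcription factor that binds the same elements, rose by a log2 difference of 0.88 in sibcat cells and 0.60 in APC cells. In siTAZ cells its log2 difference of 0.22 was called at an adjusted p of 0.0494 and lost its call when any 1 of 10 arrays was left out (log2 differences of 0.17 to 0.23). These were siGFP A, C and D, siTAZ A and B, sibcat A and C, and APC B, C and D, and the ACTB covariate also ended the call, at 0.06. IRF7, which drives type I interferon genes, fell by 0.31 in sibcat cells and rose by 0.41 in APC cells, and in siTAZ cells its log2 difference was -0.07 and not called. IFIH1, the RNA sensor MDA5, rose by 0.51 in sibcat cells and 0.55 in APC cells. Neither of its other 2 probe sets was called in sibcat cells, and averaged over its probe sets IFIH1 gave 0.22 there and was not called (adjusted p = 0.0759). DHX58, the related helicase LGP2, gave log2 differences of -0.01, 0.12 and 0.13 in siTAZ, sibcat and APC cells, none of them called.

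The IFIT and OAS families bind viral RNA or, as the oligoadenylate synthetases do, respond to it by making a signalling nucleotide. Of these 8 members, 3 rose and 1 fell in siTAZ cells, 6 rose and 1 fell in sibcat cells, and 6 rose and 1 fell in APC cells. IFIT1, which sequesters RNA with an unmethylated cap, had log2 levels of 5.55, 5.66, 5.26 and 5.49 in siTAZ cells. Its levels were 7.79, 7.93, 7.84 and 7.92 in sibcat cells, 6.56, 6.42, 6.48 and 6.33 in APC cells and 5.80, 5.81, 5.94 and 5.90 in siGFP cells. The siTAZ arrays all lay below, and the sibcat and APC arrays all above, the siGFP arrays. Its log2 difference was -0.37 in siTAZ cells (adjusted p = 0.00107), 2.01 in sibcat cells (3.2e-12) and 0.58 in APC cells (1.0e-05). The fall in siTAZ cells was not called in replicates A and B alone, where the log2 difference was -0.20.

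IFIT3, which stabilises IFIT1 on RNA, followed another order. It had log2 levels of 7.90, 7.83, 7.72 and 7.84 in siTAZ cells, 8.57, 8.61, 8.59 and 8.56 in sibcat cells, 8.76, 8.76, 8.78 and 8.70 in APC cells and 7.44, 6.97, 7.41 and 7.35 in siGFP cells. Here the siTAZ arrays lay above the siGFP arrays, and the APC arrays above all the others. The log2 differences were 0.53, 1.29 and 1.46 in siTAZ, sibcat and APC cells. IFIT2, which like IFIT1 and IFIT3 is built of tetratricopeptide repeats, rose by 0.78 in siTAZ cells, 1.38 in sibcat cells and 1.26 in APC cells. IFIT5 rose by 0.45 in sibcat and 0.80 in APC cells and gave 0.03, not called, in siTAZ cells. These 4 genes lie next to one another on chromosome 10, with 1 other coding gene between IFIT3 and IFIT1.

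The oligoadenylate synthetase genes, adjacent on chromosome 12, diverged. OAS1 rose by a log2 difference of 0.68 in siTAZ cells, 1.23 in sibcat cells and 0.49 in APC cells. OAS2 had log2 levels of 5.80, 5.86, 5.65 and 5.89 in siTAZ cells, 5.25, 5.28, 5.22 and 5.40 in sibcat cells, 4.84, 4.52, 4.37 and 4.46 in APC cells and 5.74, 5.92, 5.90 and 5.81 in siGFP cells. The siTAZ and siGFP arrays overlapped, whereas the sibcat and APC arrays lay below all of them. The fall of OAS2 gave a log2 difference of -0.56 in sibcat cells (adjusted p = 7.0e-05), and one of -1.29 in APC cells (3.4e-09). Of the other 2 OAS2 probe sets, the brighter, at a mean log2 level of 4.91, was also lower in both comparisons, and the dimmer, at 3.18, was higher in both. Averaged over its probe sets, OAS2 gave a log2 difference of -0.16 in sibcat cells and was not called there. OAS3 rose by 0.79 in APC cells, where its other probe set was not called, and gave 0.03 and 0.07, neither called, in siTAZ and sibcat cells. OASL, a family member without enzyme activity, rose by 0.30 in sibcat cells (0.25, not called, without siGFP array C) and gave 0.10 and 0.23, not called, in siTAZ and APC cells.

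The ISG15 pathway attaches a ubiquitin-like protein to newly made proteins. Of its 5 members, 2 rose and none fell in siTAZ cells, 4 rose and none fell in sibcat cells, and 3 rose and 1 fell in APC cells. ISG15 itself was high in every group, with log2 levels of 10.16, 10.12, 10.27 and 10.25 in siTAZ cells, 10.76, 10.82, 10.87 and 10.85 in sibcat cells, 10.18, 10.11, 10.27 and 10.21 in APC cells and 10.32, 10.23, 10.30 and 10.28 in siGFP cells. The sibcat arrays stood above all others, and the siTAZ and APC arrays overlapped those of siGFP cells. The rise of ISG15 in sibcat cells was 0.54 (adjusted p = 2.2e-07), and its log2 differences of -0.08 in siTAZ cells and -0.09 in APC cells were not called. UBE2L6, the conjugating enzyme, rose in each group, by 0.99 in siTAZ cells, 0.71 in sibcat cells and 0.82 in APC cells. HERC5, the ligase for ISG15 in human cells, rose by 0.46 in siTAZ cells and fell by 0.48 in APC cells, with -0.10, not called, in sibcat cells. Its neighbour on chromosome 4, HERC6, the ISG15 ligase in mice, rose by 0.59 in sibcat and 0.84 in APC cells, with 0.28, not called, in siTAZ cells. A further HERC6 probe set was not called in sibcat or APC cells. USP18, which removes ISG15 and restrains the type I receptor, rose by 0.31 in sibcat and 0.33 in APC cells, with 0.09, not called, in siTAZ cells.

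Interferon-induced GTPases assemble on viral capsids or on the vacuoles of pathogens. Of the 4 members, 3 rose in siTAZ cells, all 4 rose in sibcat cells, and 3 rose and 1 fell in APC cells. GBP1, a guanylate-binding protein, had log2 levels of 6.55, 6.56, 6.73 and 6.41 in siTAZ cells, 6.71, 6.88, 7.0 and 6.86 in sibcat cells, 7.89, 8.0, 8.24 and 7.93 in APC cells and 5.08, 4.78, 5.38 and 5.31 in siGFP cells. Every siTAZ, sibcat and APC array lay above every siGFP array, and the APC arrays lay above all the rest. GBP1 thus had a log2 difference of 1.43 in siTAZ cells (adjusted p = 7.4e-08), 1.73 in sibcat cells (3.8e-09) and 2.88 in APC cells (4.3e-12). Its siGFP mean of 5.14 lay just above 5.10, with siGFP arrays A and B below 5.10, so these sizes are uncertain too. This probe set can cross-hybridise, and the other 2 GBP1 probe sets with a mean log2 level above 5.10 also rose in sibcat cells, by 2.02 and 0.96, and in APC cells, by 3.15 and 2.25. GBP2, next to it on chromosome 1, rose by 1.64 in sibcat and 1.16 in APC cells and gave 0.20, not called, in siTAZ cells.

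MX1 and MX2, neighbours on chromosome 21, encode dynamin-like GTPases that act on influenza virus and on HIV. MX1 rose by a log2 difference of 0.65 in siTAZ, 0.87 in sibcat and 0.40 in APC cells. MX2 had log2 levels of 7.68, 7.72, 7.76 and 7.74 in siTAZ cells, 7.46, 7.30, 7.43 and 7.43 in sibcat cells, 6.46, 6.64, 6.15 and 6.50 in APC cells and 6.92, 6.75, 6.81 and 7.02 in siGFP cells. It rose by 0.85 in siTAZ and 0.53 in sibcat cells and fell by 0.44 in APC cells, with no overlap between any of these groups and siGFP cells. In replicates A and B alone, the log2 difference of MX2 in APC cells was -0.29 and not called.

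Of 6 membrane-associated effectors, 3 rose and none fell in siTAZ cells, 3 rose and 3 fell in sibcat cells, and 3 rose and 1 fell in APC cells. The IFITM proteins block fusion of viruses with endosomes, and their genes, adjacent on chromosome 11, were the brightest members, with group means of 11.15 to 12.68. Their probe sets can cross-hybridise by their names, so the signal of 1 gene may include the others. IFITM1 rose by a log2 difference of 0.49 in siTAZ cells and fell by 0.25 in sibcat cells, and its 0.03 in APC cells was not called. IFITM2 fell by 0.58 in sibcat and 0.63 in APC cells, and IFITM3 fell by 0.28 in sibcat cells. The sibcat and siGFP arrays of IFITM3 overlapped, and its call was lost without siGFP array A, sibcat array C or sibcat array D, with log2 differences of -0.24 to -0.22. BST2, or tetherin, which holds budding virions at the cell surface, rose by 0.43 in siTAZ, 0.78 in sibcat and 0.66 in APC cells. PLSCR1, a phospholipid scramblase, rose by 0.47 in sibcat and 0.81 in APC cells, with -0.11, not called, in siTAZ cells. Both of its bright probe sets can cross-hybridise, and the third, at a mean log2 level of 2.35, gave -0.11 in APC cells.

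RTP4, a receptor transporter protein, was the member of this class with the largest differences. It had log2 levels of 4.97, 4.77, 5.01 and 4.98 in siTAZ cells, 6.16, 6.35, 6.18 and 6.46 in sibcat cells, 7.01, 6.95, 7.17 and 7.0 in APC cells and 4.57, 4.67, 4.27 and 4.57 in siGFP cells. None of the 4 groups overlapped another, with APC cells highest and siGFP cells lowest. RTP4 gave a log2 difference of 0.41 in siTAZ cells (adjusted p = 0.00185), 1.77 in sibcat cells (1.2e-10) and 2.51 in APC cells (8.7e-13). The siTAZ and siGFP means lay below 5.10, and in replicates A and B alone the siTAZ difference was 0.25 and not called.

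The members acting on nucleotides and RNA were 3. ISG20, an exonuclease for single-stranded RNA, had log2 levels of 9.19, 9.14, 9.11 and 9.07 in siTAZ cells, 7.77, 7.62, 7.68 and 7.73 in sibcat cells, 7.10, 6.93, 7.21 and 7.18 in APC cells and 8.05, 8.12, 8.13 and 8.0 in siGFP cells. The siTAZ arrays all lay above, and the sibcat and APC arrays all below, the siGFP arrays. For ISG20 the log2 difference was 1.05 in siTAZ cells (adjusted p = 1.6e-09), -0.38 in sibcat cells (0.000114) and -0.97 in APC cells (1.7e-09). A further probe set of ISG20 gave log2 differences of -0.52 in sibcat cells and -1.05 in APC cells. CMPK2, a mitochondrial nucleotide kinase, rose by 0.95 in sibcat cells, and its log2 differences of 0.10 in siTAZ and -0.18 in APC cells were not called. RSAD2, or viperin, which makes a chain-terminating nucleotide and lies beside CMPK2 on chromosome 2, had group means of 3.44 to 3.79. It fell by 0.36 in siTAZ and 0.35 in APC cells, and these values are all below 5.10.

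Of 5 genes named IFI, 3 rose in siTAZ cells, 2 rose and 1 fell in sibcat cells, and 1 rose and 2 fell in APC cells. IFI27, a mitochondrial and nuclear membrane protein, had log2 levels of 7.80, 7.74, 7.86 and 7.87 in siTAZ cells, 6.67, 6.77, 6.69 and 6.89 in sibcat cells, 6.05, 6.04, 5.93 and 6.15 in APC cells and 7.38, 7.35, 7.32 and 7.26 in siGFP cells. As with ISG20, siTAZ arrays lay above and sibcat and APC arrays below the siGFP arrays. The log2 difference was 0.49 in siTAZ cells (adjusted p = 7.9e-06), -0.57 in sibcat cells (8.4e-07) and -1.29 in APC cells (3.0e-11). IFI6, a relative of IFI27 that delays apoptosis, had log2 levels of 8.91, 9.14, 8.94 and 9.12 in siTAZ cells, 8.93, 8.90, 8.92 and 9.06 in sibcat cells, 7.93, 7.85, 7.76 and 7.78 in APC cells and 8.60, 8.55, 8.48 and 8.43 in siGFP cells. It rose by 0.51 in siTAZ and 0.44 in sibcat cells and fell by 0.69 in APC cells, and the siTAZ and sibcat arrays overlapped. IFI35, which interacts with NMI, rose by 0.26 in siTAZ, 1.44 in sibcat and 1.08 in APC cells, and the siTAZ call was lost in 4 of the 11 alternatives other than leaving out 1 array. It was also lost without siGFP B, C or D or without any 1 siTAZ array, with log2 differences of 0.21 to 0.27. IFI44 and IFI44L lay at group means of 2.54 to 3.82, below 5.10, and neither was called in any of these comparisons.

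Nuclear body proteins, TRIM ligases and the PARP9 complex make a class of 7 members. All 7 rose in sibcat cells, by log2 differences of 0.58 to 2.73, and all 7 rose in APC cells, by 0.60 to 1.63, where 18.6% and 16.6% of all genes rose. In siTAZ cells 4 rose and 1 fell, where 17% and 13.1% of all genes did so, with log2 differences of -0.18 to 1.00. TRIM22, a ubiquitin ligase, had log2 levels of 4.83, 4.68, 4.59 and 4.50 in siTAZ cells, 6.34, 6.42, 6.45 and 6.28 in sibcat cells, 4.27, 4.57, 4.63 and 4.35 in APC cells and 3.64, 3.85, 3.70 and 3.40 in siGFP cells. The sibcat arrays stood apart at the top, the siTAZ and APC arrays overlapped each other, and the siGFP arrays lay below them all. The log2 difference was 1.00 in siTAZ cells (adjusted p = 7.3e-07), 2.73 in sibcat cells (2.0e-12) and 0.81 in APC cells (5.4e-06). Only the sibcat mean exceeded 5.10, and the only TRIM22 probe set can cross-hybridise by its name. SP110, a nuclear body component, rose by 0.61 in siTAZ, 1.10 in sibcat and 1.63 in APC cells, and its 4 other probe sets were also higher in sibcat and in APC cells. SP100, another nuclear body component, rose by 0.34, 0.58 and 0.60 in siTAZ, sibcat and APC cells. TRIM21, a cytosolic antibody receptor and ubiquitin ligase, rose by 0.37, 0.67 and 0.74. The siTAZ call of TRIM21 was lost with the ACTB covariate (0.19, adjusted p = 0.253), in replicates C and D alone (0.38, adjusted p = 0.087), without siGFP array D (0.26) and without siTAZ array A (0.32).

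PARP9, DTX3L and PARP14 form a cluster on chromosome 3, and PARP9 and DTX3L make 1 complex that joins ubiquitin ligase and ADP-ribosyl transferase activity. DTX3L rose by a log2 difference of 0.74 in sibcat and 0.83 in APC cells and gave -0.09, not called, in siTAZ cells. PARP9 rose by 0.84 in sibcat and 0.94 in APC cells and gave 0.20, not called, in siTAZ cells. A PARP9 probe set whose name marks no cross-hybridisation gave 0.20, not called, in sibcat cells and 0.40 in APC cells. PARP14, a mono-ADP-ribosyl transferase, had log2 levels of 7.06, 7.01, 7.0 and 7.03 in siTAZ cells, 8.11, 8.09, 8.05 and 8.06 in sibcat cells, 8.05, 8.17, 8.14 and 8.12 in APC cells and 7.30, 7.13, 7.21 and 7.19 in siGFP cells. The sibcat and APC arrays overlapped each other about 1 log2 unit above the siTAZ arrays, which lay just under the siGFP arrays. PARP14 rose by 0.87 in sibcat and 0.91 in APC cells and fell by 0.18 in siTAZ cells, and that fall was not called when all its probe sets were averaged (-0.06). Its other probe set was called in none of these comparisons.

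The last class holds 4 genes linked to growth arrest and cell death, of which 3 rose in siTAZ cells and all 4 rose in sibcat and in APC cells. SAMD9, a translation inhibitor that restricts poxviruses and cell growth, had log2 levels of 6.55, 6.40, 6.49 and 6.53 in siTAZ cells, 5.69, 5.67, 5.87 and 5.68 in sibcat cells, 6.95, 6.95, 7.07 and 6.96 in APC cells and 3.77, 3.83, 3.70 and 3.90 in siGFP cells. No 2 groups overlapped, and the order was APC, siTAZ, sibcat and siGFP. The log2 difference was 2.69 in siTAZ cells (adjusted p = 9.9e-15), 1.93 in sibcat cells (4.7e-13) and 3.18 in APC cells (3.8e-16). The siGFP mean of 3.80 lay below 5.10, so the fold changes are uncertain in size. A further SAMD9 probe set was higher by 0.92 in sibcat cells and 2.16 in APC cells. SAMD9L, its neighbour and paralogue on chromosome 7, had log2 levels of 4.39, 4.58, 4.79 and 4.73 in siTAZ cells, 5.75, 5.12, 5.81 and 5.70 in sibcat cells, 5.41, 5.52, 5.40 and 5.48 in APC cells and 4.50, 4.33, 3.98 and 3.95 in siGFP cells. It rose by 1.41 in sibcat and 1.26 in APC cells. In siTAZ cells its arrays overlapped those of siGFP cells, and the log2 difference of 0.43, called at an adjusted p of 0.0325, was not called with the replicate letter as a block (adjusted p = 0.0517) or in replicates A and B alone (0.07). It was also not called without siGFP C or D or without siTAZ B, C or D, with log2 differences of 0.35 to 0.45. EPSTI1 rose by 0.46, 0.93 and 0.78 in siTAZ, sibcat and APC cells. XAF1, an antagonist of the apoptosis inhibitor XIAP, rose by 0.38 in sibcat and 1.14 in APC cells, gave -0.06, not called, in siTAZ cells, and had group means below 5.10 throughout. Its sibcat call was lost in A and B alone (0.33), in C and D alone (0.43), with the ACTB covariate (0.34), and without siGFP C, siGFP D, sibcat B or sibcat C (0.32 to 0.37).

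**Figure D3:**
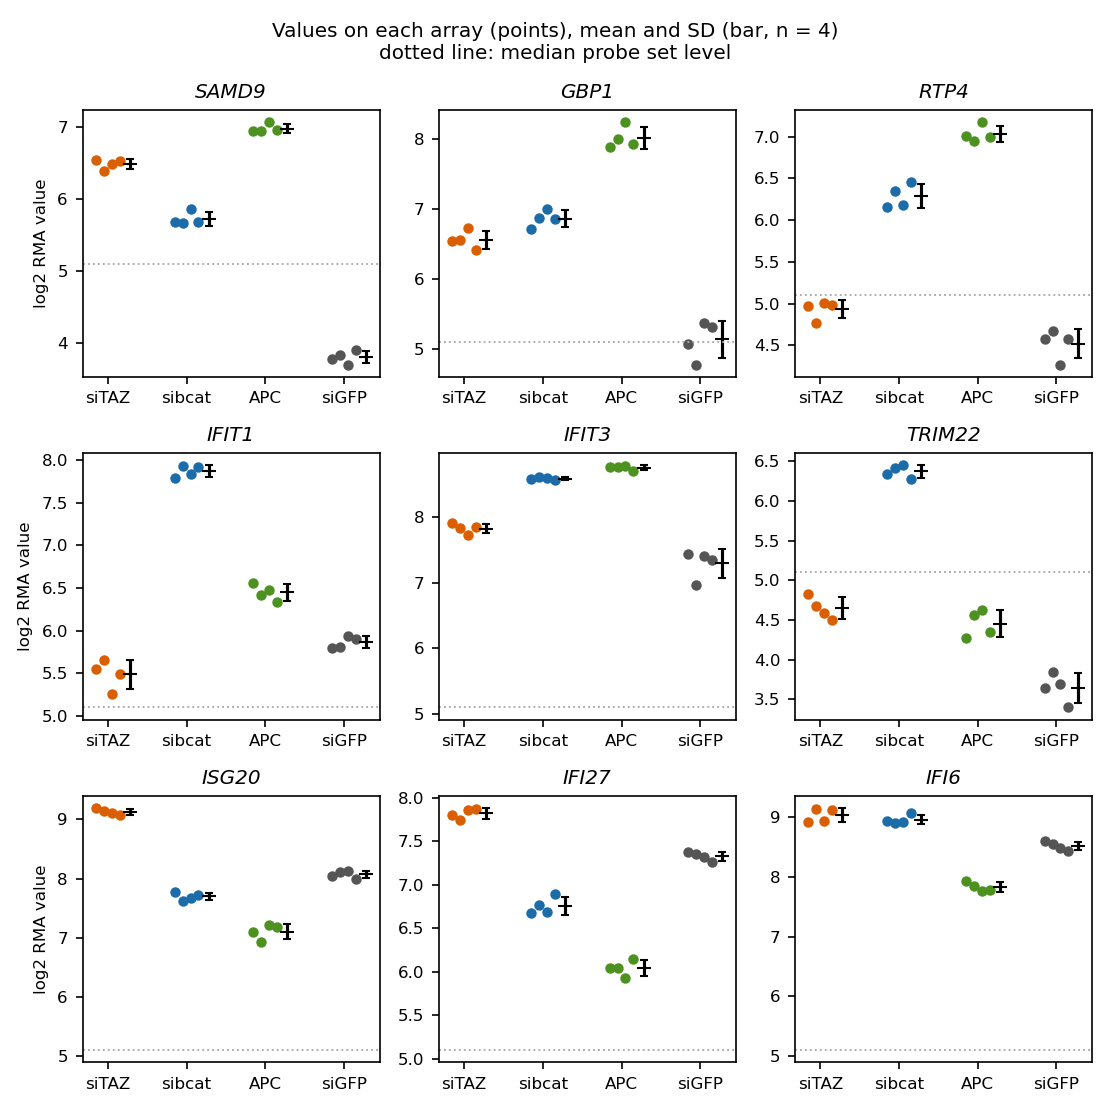
Log2 RMA value on each of the 4 arrays (points) with mean and SD (bars) for 9 members in siTAZ, sibcat, APC and siGFP cells, with the median probe set level of 5.10 as a dotted line. SAMD9, GBP1 and RTP4 are highest in APC cells, IFIT1 and TRIM22 in sibcat cells, and ISG20 and IFI27 in siTAZ cells.

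Direct comparisons between the 3 perturbed groups asked where the responses differ. No siGFP mean enters these differences, but the siGFP arrays enter the shared estimate of the spread. Against sibcat cells, siTAZ cells had 11 members higher (23.4%), where 18.9% of all genes were, and 26 lower (55.3%), where 17.8% of all genes were. The median log2 difference was -0.30, against 0.01 over all genes. IFIT1 was lower in siTAZ than in sibcat cells by a log2 difference of -2.38, TRIM22 by -1.72, GBP2 by -1.44, RTP4 by -1.36 and IFI35 by -1.18. All 7 members of the nuclear body, TRIM and PARP9 class were called lower. Without probe sets that can cross-hybridise, PARP9 (-0.16) and SP100 (-0.20) lost that call and TRIM22 was not measured. TRIM21 (-0.31) lost it without siTAZ C, siTAZ D, sibcat A or sibcat B (-0.30 to -0.24). ISG20 and IFI27 were higher in siTAZ than in sibcat cells, by 1.43 and 1.06, and so were SAMD9 (0.77), IFITM1 (0.74), IFITM2 (0.58) and HERC5 (0.56).

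Between APC and sibcat cells the share of members higher in APC cells was near that of all genes, and more members were lower. Against sibcat cells, APC cells had 11 members higher (23.4%), where 20.3% of all genes were, and 16 lower (34.0%), where 21.7% of all genes were. In the median the log2 difference was 0.01, the same to 2 decimals as over all genes. TRIM22 was lower in APC than in sibcat cells by a log2 difference of -1.92, IFIT1 by -1.42, IRF9 by -1.18, CMPK2 by -1.13 and IFI6 by -1.12. SAMD9 and GBP1 were higher in APC cells by 1.25 and 1.15, and XAF1, RTP4, OAS3 and IRF7 by 0.75, 0.74, 0.72 and 0.71. The other 20 were not called, among them IFIT2 (-0.12), IFIT3 (0.17), PARP14 (0.04), DTX3L (0.09) and SP100 (0.02).

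Against APC cells, siTAZ cells had 11 members higher (23.4%), near the 22.4% of all genes, and 26 lower (55.3%), where 19.9% of all genes were. The median log2 difference was -0.26, against 0.00 over all genes. Higher in siTAZ cells were ISG20 by 2.02 (adjusted p = 8.7e-14), IFI27 by 1.77, MX2 by 1.29, OAS2 by 1.25 and IFI6 by 1.20, and after them HERC5 by 0.94, IRF9 by 0.66, IFITM2 by 0.64 and IFITM1 by 0.46. Lower in siTAZ cells were RTP4 by -2.10 (adjusted p = 5.5e-12), GBP1 by -1.45, XAF1 by -1.19, PARP14 by -1.09 and SP110 by -1.03. All 4 members of the growth and death class and 6 of the 7 in the nuclear body, TRIM and PARP9 class were called lower in siTAZ than in APC cells, and SP100 lost that call without probe sets that can cross-hybridise (-0.02). ISG15 (0.01), TRIM22 (0.20) and OAS1 (0.19) were not called.

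**Figure D4:**
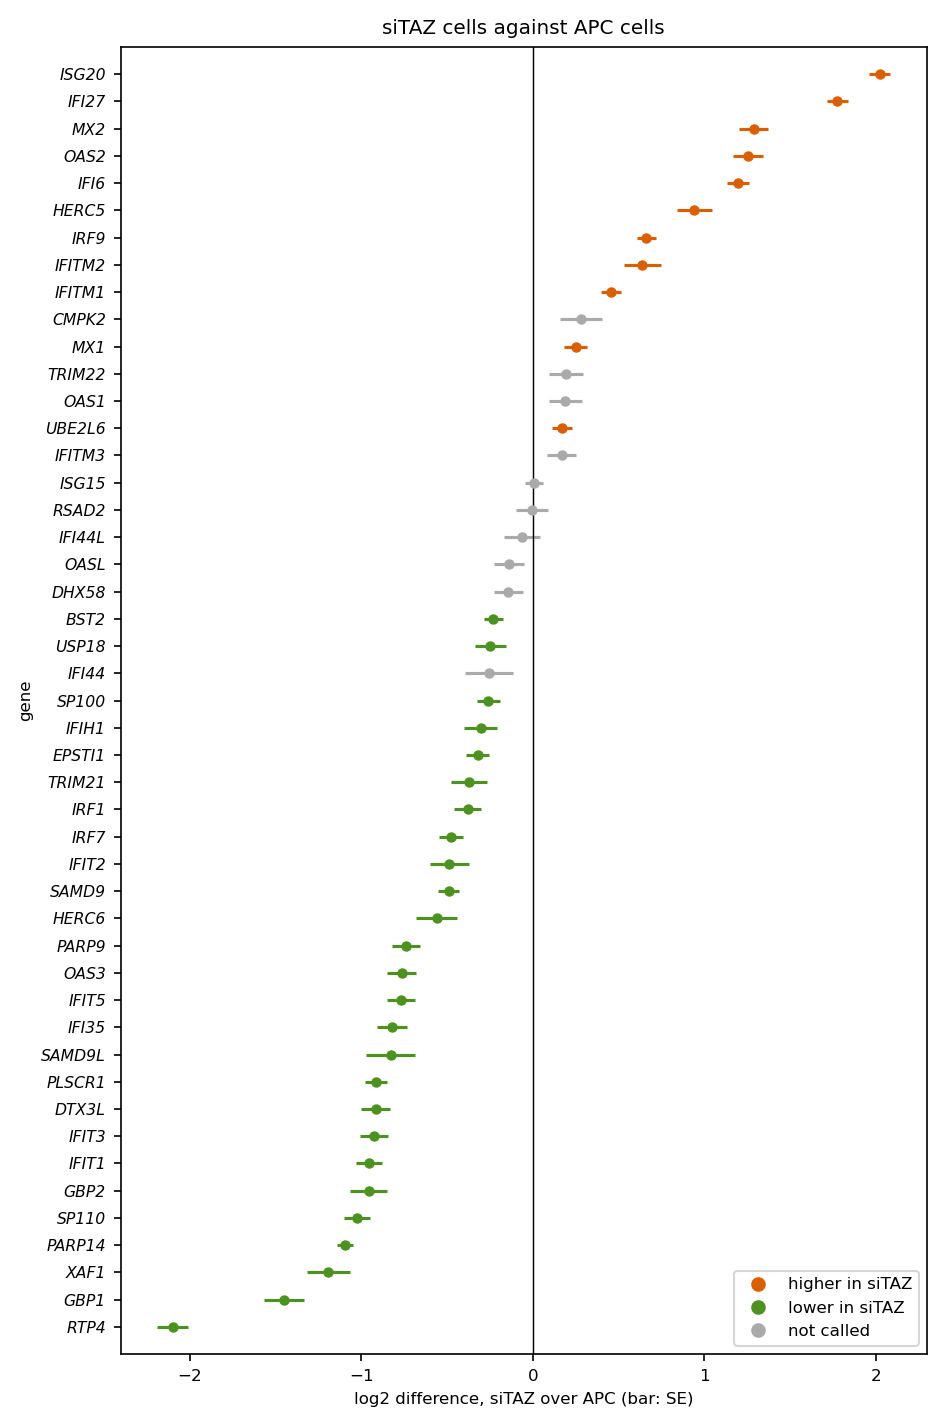
Log2 difference of each measured member between siTAZ and APC cells (point) with its standard error (bar), ordered by size. The 11 members called higher in siTAZ cells run from 0.17 for UBE2L6, which lost its call without siTAZ B, siTAZ D or APC D (0.15 to 0.16), to 2.02 for ISG20, and the 26 called lower reach -2.10 for RTP4.

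Members with and without the response element core were found among those that rose and those that fell. Over all genes 17%, 18.6% and 16.6% rose and 13.1%, 17.3% and 17.1% fell in siTAZ, sibcat and APC cells. In siTAZ cells 13 of the 24 members with a core rose and 2 fell against siGFP cells, with a median log2 difference of 0.39, and of the 13 without one 8 rose and 1 fell, with a median of 0.28. In sibcat cells 16 of 24 with a core rose and 4 fell, with a median of 0.53, and 12 of 13 without one rose and none fell, with a median of 0.84. In APC cells 15 of 24 with a core rose and 4 fell, with a median of 0.62, and 10 of 13 without one rose and 2 fell, with a median of 0.82. ISG20, IFI27 and IFI6, whose windows are printed above and which fell in APC cells, carry cores as SAMD9, GBP1 and RTP4 do, which rose there. These counts are a description, and no test was made of the difference between members with and without a core.

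Many members share a locus. By gene order on GRCh38.p14, 27 of them form 11 runs with at most 2 other coding genes in between. Neighbours did not always share a call. In APC cells OAS1 and OAS3 rose while OAS2 fell, MX1 rose while MX2 fell, and HERC6 rose while HERC5 fell. In siTAZ cells IFIT2 and IFIT3 rose while IFIT1 fell. SAMD9 with SAMD9L, GBP1 with GBP2, SP100 with SP110 and PARP9 with DTX3L and PARP14 were called higher together in sibcat and in APC cells.

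Where a called member had further probe sets of its own, these did not always give the same call. In siTAZ over siGFP cells 10 of 23 further probe sets were called the same way, 13 were not called and none was called the opposite way. In sibcat over siGFP cells 22 of 35 were called the same way and in APC over siGFP cells 25 of 36, and in each of these 1 probe set, of OAS2, was called the opposite way. Counted by member, 9 of 13, 16 of 21 and 18 of 22 in siTAZ, sibcat and APC cells had at least 1 further probe set called the same way. The representative probe set of 15 of the 47 members can cross-hybridise by its name. Of these members, IRF7, ISG15, IFITM1, IFITM2, IFITM3, IFI35 and TRIM22 have no further probe set of their own.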

How the data were processed

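Total RNA from 16 SW480 samples was hybridised to Affymetrix arrays. The authors deposited log2 expression values, made with RMA per the submitters' processing notes, which give no version, and base 2 was inferred from their range (1.80 to 14.56). RMA corrects background, quantile-normalises and summarises probe sets, so a shift in all RNA of a cell is not visible. Of 54675 probe sets, 41097 were annotated to 1 gene, 1801 to several and 11777 to none, and 0 symbols changed on update. The brightest probe set by mean represented each of 19775 genes, with no filter on dim signals.

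A single limma fit over the 16 arrays (limma 3.58.1, R 4.3.3; lmFit, eBayes, no block) gave every comparison, and p-values were Benjamini-Hochberg adjusted over all genes within each of 6 comparisons, with calls under 0.05. The script was tested on simulated data. The 27 alternatives comprised 16 that each left out 1 array, and blocks, probe set rules, centring, an ACTB covariate and subsets of replicates. Named genes were the 5 largest and 5 smallest called differences per comparison with control, the largest of each role class and up to 4 pathway genes per direction, and every other member is also given, by value or count. Members, lists and tests were chosen with earlier results of these data known.

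The letters A to D were checked for pairing by correlating deviations from group means: the 24 same-letter pairs gave r of 0.0843 to 0.403 (median 0.151; 22 over 0.1) and the 72 other pairs a median of -0.128. Of these, the 24 pairs of unlike letters within A and B or within C and D had a median of 0.165 (0.0303 to 0.352), so A and B against C and D describes the shared deviations as well as the letter does. Every same-letter pair exceeded 0.1 in sibcat and APC cells against siGFP cells and in siTAZ and APC cells against sibcat cells, but not in siTAZ cells against siGFP or APC cells. Biological replicates are named in the series text, but not whether each was a culture of its own, so the p-values reflect only the spread among these arrays and part of it may be technical. Array signals carry no counts, and the number of arrays limits precision. Promoter sequences are RefSeq's on GRCh38.p14. Figures were drawn with matplotlib 3.10.9.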

Additional observations from a re-analysis of the deposited data

Results flagged for a closer look

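In 10 of 188 groups of 4 arrays (5.32%; chance flags about 1 in 20) 1 array lay far from the others in log2 level. SAMD9 was 5.87 on sibcat array C (others 5.67 to 5.69) and 7.07 on APC array C (others 6.95 to 6.96), and SAMD9L was 5.12 on sibcat array B (others 5.70 to 5.81). RTP4 was 4.77 on siTAZ array B (others 4.97 to 5.01), and GBP2 was 5.22 on the same array (others 5.54 to 5.58). OAS1 was 7.13 on sibcat array A (others 7.31 to 7.33), and PARP9 was 7.2 on sibcat array D (others 6.96 to 6.98). USP18 was 6.0 on APC array C (others 5.61 to 5.66), IFI44L was 2.85 on APC array A (others 2.64 to 2.67) and IFIH1 was 7.90 on siGFP array B (others 8.28 to 8.33).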

How the results depend on the processing

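Of the member results called in the 6 comparisons, recomputed under 27 alternatives, 5417 kept direction and call, 134 kept direction and lost the call, and 3 changed sign. Shares of all genes called were computed only for the single fit over the 16 arrays. The counts of members under the alternatives thus have no such share beside them. Centring arrays on their medians left 5 members lower in siTAZ over siGFP cells instead of 3 (21 higher). Replicates A and B alone, which are fewer samples, left 0 in limma (also 0 at an unadjusted p under 0.05). Centring shifted all log2 differences of a comparison alike. In siTAZ over siGFP cells the median of all genes moved from 0.015 to -0.06, and how far this shift accounts for the changed counts was not tested. Without probe sets that can cross-hybridise, which tests fewer genes, 3 members were lower in sibcat over siGFP cells, 7 higher in siTAZ over sibcat cells and 5 higher in APC over sibcat cells. IFITM1, IFITM2, IFITM3 and IRF7, all called lower in sibcat over siGFP cells above, had only such a probe set. They were absent from this alternative, so their calls were not retested and these counts are lower partly for that reason. There PLSCR1 rested on a dim probe set and gave -0.11 in APC over siGFP cells, -0.14 in APC over sibcat cells and 0.02 in siTAZ over APC cells. Leaving out each array in turn gave 20 to 24 higher and 3 to 4 lower in siTAZ over siGFP cells, 32 to 34 and 6 to 8 in sibcat over siGFP cells, and 30 to 31 and 9 to 9 in APC over siGFP cells. Between perturbed groups it gave 11 to 11 higher and 24 to 28 lower in siTAZ over sibcat cells, 10 to 13 and 16 to 17 in APC over sibcat cells, and 10 to 12 and 24 to 27 in siTAZ over APC cells. IRF1 in siTAZ over siGFP cells lost its call without any 1 of 10 arrays, IFI35 without any of 7 and SAMD9L without any of 5. With the replicate letter as a block, 25 members were higher and 3 lower in siTAZ over siGFP cells, 34 and 8 in sibcat over siGFP cells, and 31 and 9 in APC over siGFP cells. Of the calls in the 6 comparisons, the block ended that of SAMD9L in siTAZ over siGFP cells (0.43, adjusted p = 0.0517) and no other. Centring moved the median of all genes by less than 0.1 in every comparison. In replicates A and B alone, the calls of HERC5 and RSAD2 in siTAZ over siGFP cells, of HERC6, IFITM1 and OASL in sibcat over siGFP cells and of RSAD2 and USP18 in APC over siGFP cells were also lost. In C and D alone, IRF7 in sibcat over siGFP cells and USP18 in sibcat and in APC over siGFP cells lost theirs. A group mean below 5.10 in 11 members, SAMD9, RTP4 and TRIM22 among them, limits what these arrays show of the size of their changes.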
